A study of Drosophila melanogaster with 4 samples.

Results

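The regions described here were open in wings depleted of Osa and lay away from annotated gene ends. They had a FAIRE-seq peak in both Osa-deGrad libraries, no peak in either control library, and a summit more than 500 bp from the end of any annotated gene. Of 24088 regions made by merging the peaks of 4 libraries, 252 met this rule. They were chosen by the measured presence and absence of peaks in the 4 lists, so that pattern is a description and was not tested. They are called deGrad-only distal regions below.

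FAIRE-seq sequences the nucleosome-depleted DNA that stays in the aqueous phase when crosslinked, sheared chromatin is extracted with phenol, so its peaks mark open chromatin. Wings were taken from female Drosophila melanogaster pupae whose 2 copies of osa were both the GFP-tagged osa-GFP allele, and animals of both genotypes had UAS-Nslmb-vhhGFP, which encodes the deGrad protein. The Osa-deGrad genotype (2 libraries) added the wing driver nub-GAL4, whereas the control genotype (2 libraries) had the transgene without a driver. Per the labels, cultures kept at 23 °C were moved to 29 °C once larvae wandered. Prepupae were collected at 0 to 12 h after puparium formation (APF), and their wings, 40 per library, were dissected 24 h after that, at 24 to 36 h APF. Each library therefore pools wings. The labels do not say that the libraries came from separate crosses, so the spread between them may be technical. Degradation depends on where nub-GAL4 acts, and cells outside its domain keep Osa-GFP. The series' design text describes another assay (CUT&RUN on larval discs), and the sample labels were followed.

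Osa is the ARID-domain subunit that defines the BAP form of the Brahma SWI/SNF complex, an ATP-driven machine that slides or evicts nucleosomes. Open chromatin away from gene starts is where enhancers are usually found, and the complex is known mostly for keeping such sites accessible. The deGrad protein joins the F-box of Slmb to an anti-GFP nanobody, and so directs GFP-tagged proteins to the proteasome.

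The Osa-deGrad lists held 13959 and 17048 peaks and the control lists 13953 and 18007, so the replicate 2 lists were the longer ones in both genotypes. Distal peaks made up 53.0% and 50.3% of the Osa-deGrad lists and 58.8% and 56.0% of the control lists. Regions in all 4 lists were found inside the wing genes vg (3 regions), nub (4), ap (1), sd (3) and bs (6). Muscle marker genes also held 26 distal regions in at least 2 lists, so such regions do not identify the tissue. Open chromatin does not measure expression. Read depth is unknown from these files, and a site that barely misses the calling threshold counts as having no peak.

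Of all 15813 regions in at least 2 lists, near and far from gene ends, 3.35% were deGrad-only and 5.45% control-only. The deGrad-only distal regions made up 3.05% of the 8255 distal regions present in at least 2 lists, against 8.79% for the 726 control-only distal regions, which had a peak in both control lists and in neither Osa-deGrad list. The number depended on the lists used. A further 752 distal regions had a peak in both Osa-deGrad lists and in control 2 but not control 1, and 125 had a peak in both Osa-deGrad lists and in control 1 but not control 2. Leaving out a control library relaxes the rule, and gave 1023 regions without control replicate 2 and 383 without control replicate 1. Leaving out an Osa-deGrad library gave 1624 regions without Osa-deGrad replicate 1 and 1313 without Osa-deGrad replicate 2.

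Most of these regions were weak peaks. The percentile rank of a peak is used here for the percent of its own list with a lower −log10 q value. The median rank of the 252 regions was 26.7 in Osa-deGrad 1 and 21.2 in Osa-deGrad 2, and the median of the authors' fold enrichment at the summit was 4.09 and 3.36. Only 8 regions ranked above 50 in both lists, 61 ranked above 25 in both and 149 above 10. For comparison, the 3999 distal regions in all 4 lists had median ranks of 68.8 and 69.6 in the same lists. The control-only distal regions, chosen in the mirrored way, were also weak, with median ranks of 33.7 in control 1 and 28.0 in control 2. The regions were narrow, with a median width of 257.5 bp, against 286 bp for control-only distal regions and 507 bp for distal regions in all 4 lists.

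The summits of both Osa-deGrad libraries lay a median of 45 bp apart, which the required overlap of narrow peaks keeps small. The distance between replicate summits was 55 bp in control-only distal regions. The ranks in both libraries were weakly related, with Spearman's rho of 0.12 and Pearson's r of 0.181 across the 252 regions, against 0.22 and 0.249 across the 726 control-only distal regions in the control libraries. Across distal regions in all 4 lists they were 0.687 and 0.639 in the Osa-deGrad libraries. These correlations run across regions of the same pair of libraries and are descriptions. In 135 of the 252 regions the rank was higher in Osa-deGrad 1.

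**Figure D1:**
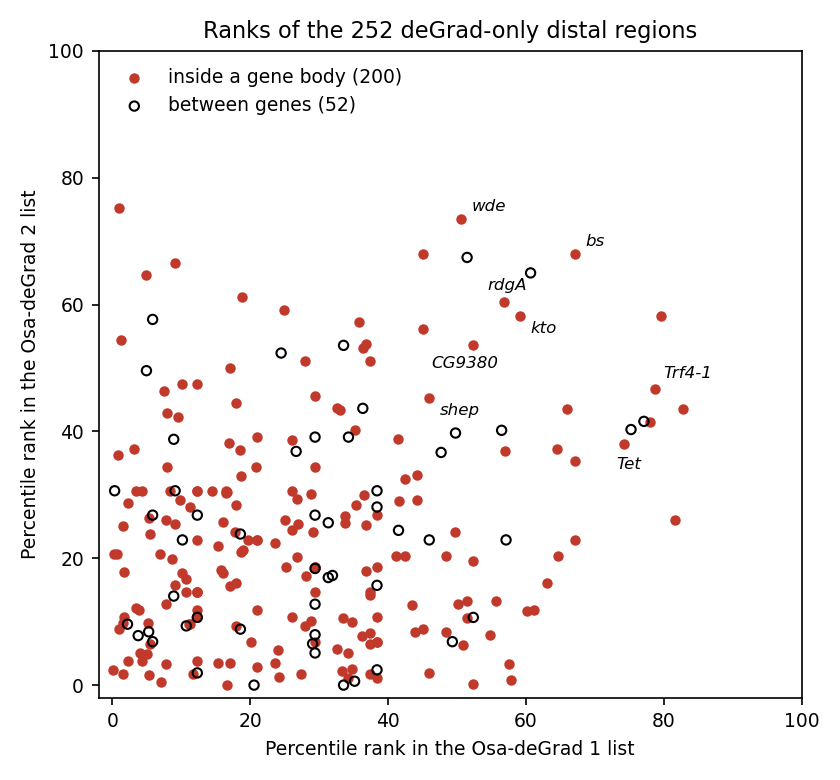
Percentile rank of each deGrad-only distal region in the Osa-deGrad 1 list (x axis) and the Osa-deGrad 2 list (y axis), with regions inside a gene body filled and those between genes open. Most of the 252 points lie below 50 on both axes, and 8 lie above 50 on both.

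The strongest of these regions were ordered by the rank of their weaker peak. The first lay inside bs, which encodes the Drosophila serum response factor that sets intervein fate in the pupal wing. It lay on 2R at 24343487 to 24343804 (dm6, as are all coordinates), 822 bp from an end of the gene, with ranks of 67.1 (Osa-deGrad 1) and 68.0 (Osa-deGrad 2) and folds of 6.47 and 5.98 in the same order, in which ranks and folds are also given for the regions that follow. The nearest control peaks lay 322 and 395 bp away in control 1 and 2. The second lay between genes, 592 bp from RanBPM, which encodes a Ran-binding scaffold protein (2R, 10429013 to 10429207, ranks 60.66 and 64.98). The third lay within Mvk, the mevalonate kinase gene, and the overlapping CG33672 (2R, 12634881 to 12635164, ranks 79.6 and 58.1).

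The fourth lay inside kto, which encodes the Med12 subunit of the Mediator kinase module (3L, 19842805 to 19843001). It had ranks of 59.1 and 58.1 and a fold enrichment of 5.63 and 5.04, with the nearest control peaks 2169 and 1430 bp away. Regions inside rdgA, a diacylglycerol kinase gene (X, 8924669 to 8925164, ranks 56.9 and 60.4), and inside CG9380, 20015 bp from the gap gene Kr (2R, 25206480 to 25206714, ranks 52.4 and 53.6), came next. The rdgA region had its nearest control peaks 3583 and 16314 bp away, and the CG9380 region 16154 and 8388 bp away. The others with both ranks above 50 lay 1435 bp from Osi11, a gene of the Osiris family (3R, 6270083 to 6270343), and inside wde, which encodes a cofactor of the histone H3K9 methyltransferase Eggless (2R, 10807328 to 10807564). They ranked at 51.4 and 67.4 (Osi11) and at 50.6 and 73.4 (wde).

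The remaining 12 of the 20 strongest had a weaker rank between 38.8 and 46.8. They lay inside Trf4-1, a non-canonical poly(A) polymerase gene, shep, an RNA-binding protein gene, CG31705, CG14434, CG15894, CG42748, tws, which encodes a B subunit of protein phosphatase 2A, and Ask1, a MAP kinase kinase kinase gene. Those between genes lay 707 bp from side-V, 667 bp from the zinc-finger repressor gene ken, 4149 bp from lncRNA:CR45580 and 5218 bp from lncRNA:CR44799. The CG15894 region (X, 6328869 to 6329076) had the highest rank of any of the 252 in Osa-deGrad 1, at 82.8 with a fold enrichment of 8.05. In Osa-deGrad 2 its rank was 43.6 and its fold 4.46.

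Most of the regions were intragenic. Of the 252, 200 (79.4%, 95% Wilson interval 73.9 to 83.9, which covers counting error only) lay inside a gene body and 52 between genes, and 198 lay inside a protein-coding gene. The share inside a gene body was 75.2% (71.9 to 78.2) for control-only distal regions and 80.3% (79.0 to 81.5) for distal regions in all 4 lists. The gene table gives gene spans without exons or strand, so introns, exons, 5′ and 3′ ends and internal start sites could not be told apart.

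Within the distal class, the summits lay closer to gene ends than those of control-only regions. The median distance was 2314 bp, against 4746 bp for control-only distal regions and 3014 bp for distal regions in all 4 lists. Summits between 500 and 2000 bp from a gene end made up 46.4% (117 of 252, interval 40.4 to 52.6), against 24.7% (21.7 to 27.9) of control-only distal regions and 38.8% of distal regions in all 4 lists. Beyond 10 kb the shares were 14.3%, 27.4% and 17.2%. A like gap was present over whole lists. The median distance of all distal peaks was 2913 and 2800 bp in Osa-deGrad 1 and 2, against 3398 and 3332 bp in control 1 and 2. These lists include the one-genotype regions themselves. Without the peaks in deGrad-only and control-only distal regions, the medians were 2952 and 2819 bp in Osa-deGrad 1 and 2, against 3271 and 3195 bp in control 1 and 2. The genotypes did not overlap in either form. For the whole lists the exact permutation test over libraries (two-sided) gave p = 0.333, the smallest that 2 against 2 libraries allow.

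**Figure D2:**
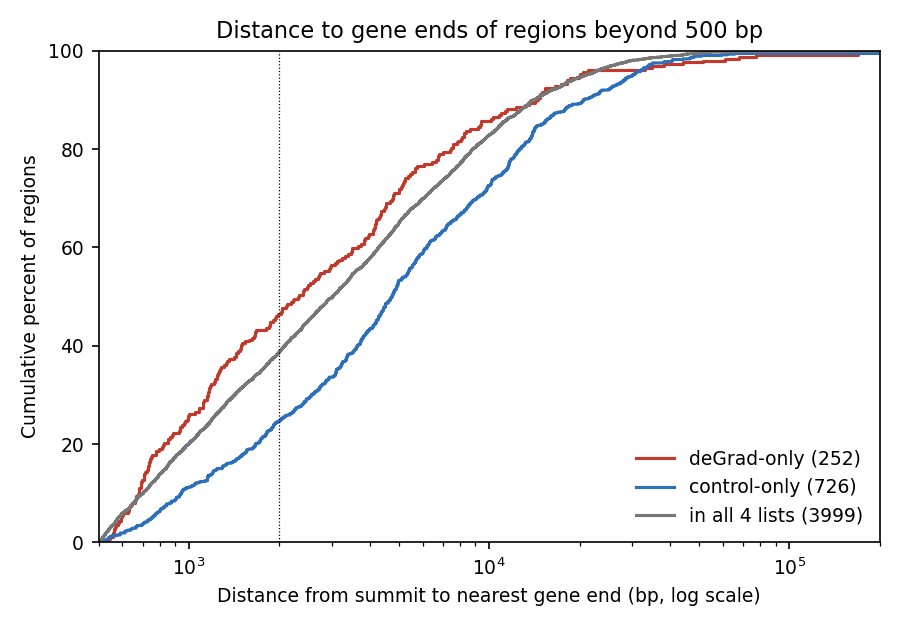
Cumulative percent of distal regions (y axis) by the distance of the summit to the nearest gene end (x axis, log scale), for deGrad-only, control-only and shared regions, with a dotted line at 2000 bp. The deGrad-only line runs left of the control-only line, with 46.4% against 24.7% of regions at or under 2000 bp.

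The limit of 500 bp cut through a continuous range. The members closest to it lay at DIP1 (526 bp), ZnT63C (538 bp), asRNA:CR45738 (547 bp) and form3 (556 bp). The deGrad-only regions just inside 500 bp lay at lncRNA:CR43612 (484 bp), asRNA:CR45171 (480 bp), mth (470 bp) and enc (466 bp). Ranks in Osa-deGrad 1 ran from 3.7 to 33.7 for these 4 members and from 7.2 to 65.8 for the 4 just outside the rule, and in Osa-deGrad 2 from 6.8 to 26.7 and from 21.6 to 45.2.

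Many of the regions flanked chromatin that was open in control wings. Of the 252, 117 (46.4%) lay within 500 bp of a peak of at least 1 control library and 73 (29.0%) within 500 bp of a peak in both. Control-only distal regions lay within 500 bp of an Osa-deGrad peak in 206 of 726 cases (28.4%). The nearest region present in all 4 lists was within 500 bp for 63 deGrad-only (25%) and 100 control-only distal regions (13.8%). At the other extreme, 31 regions (12.3%) had no control peak within 5 kb. A region beside a shared peak can be a shoulder of that peak or a separate site, and peak lists do not tell these apart.

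Some deGrad-only regions sat beside a control-only one. Of the 252, 3 lay within 500 bp of a control-only distal region, a class of 726 regions. For comparison, 63 lay within 500 bp of one of the 7900 regions in all 4 lists, and neither count was tested. At for, the cGMP-dependent protein kinase gene, a deGrad-only region (2L, 3632505 to 3632712) with ranks of 1.003 and 75.27 in Osa-deGrad 1 and 2 lay 113 bp from a control-only region (3632077 to 3632391) with ranks of 76.1 and 82.3 in control 1 and 2. The deGrad-only peak was thus near the bottom of the Osa-deGrad 1 list and in the upper part of the Osa-deGrad 2 list. At chas the gap was 68 bp (X, 17695327 to 17695637, ranks 9.82 and 29.2, against 48.5 and 60.0 for the control-only region). At Nost, which encodes a nostrin-like adaptor, it was 150 bp (X, 9038551 to 9038894, ranks 24.1 and 1.27, against 45.9 and 32.2).

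The 198 intragenic regions were spread over 196 protein-coding genes, some of which overlap each other. Of these genes 181 held 1 region, 13 held 2, and Myo81F and gpp held 3. The host genes had a median span of 16.7 kb, against 27.0 kb for the 410 host genes of control-only distal regions, 14.3 kb for those of distal regions in all 4 lists and 2.16 kb for all 13962 protein-coding genes. A long gene holds more distal sequence, which was not corrected for. In 147 of the 196 host genes a region in all 4 lists was also present, and 52 also held a control-only distal region.

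Of the genes with several deGrad-only distal regions, gpp encodes the histone H3K79 methyltransferase Dot1. Its 3 regions had their summits within 2478 bp of each other (3R, 6421655 to 6424451). Their ranks were 36.2, 29.2 and 36.8 in Osa-deGrad 1 and 7.75, 24.1 and 25.3 in Osa-deGrad 2, with the nearest control peak 1076 to 4399 bp away. In the middle region the peaks of both libraries overlapped only at their edges, with summits 221 bp apart. They were 250 bp (Osa-deGrad 1) and 172 bp (Osa-deGrad 2) wide, in a region of 417 bp. At skd, which encodes Med13, the partner of Med12 in the Mediator kinase module, 2 regions had summits 519 bp apart (3L, 21007732 to 21008483), the first with ranks of 19.7 and 22.8 and the second with ranks of 54.8 and 7.94. The nearest control peaks lay 3635 bp (control 1) and 781 bp (control 2) from the first skd region. From the second they lay 3234 and 380 bp away in the same order. With kto and skd, both large subunit genes of the Mediator kinase module held at least 1 such region, a fact noticed after the values were seen.

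At ham, which encodes a PR-domain zinc-finger factor known from sensory neuron fate, the gene body held 3 peaks in each Osa-deGrad library and 0 in either control library. Its 2 deGrad-only regions lay at 18776668 to 18776817 and 18783420 to 18783766 on 2L, the first with ranks of 18.7 and 21.0 and the second with ranks of 28.0 and 51.1. The nearest control peaks lay 12112 to 18833 bp away. The rule chose both regions for lacking a control peak. The third peak in ham was not shared by the Osa-deGrad libraries. Measured from the lower-coordinate end of ham, it lay at 14.641 to 14.899 kb in Osa-deGrad 1 and 19.702 to 19.831 kb in Osa-deGrad 2. In all, 16 of the 196 host genes (8.2%) had no control peak summit inside them. Besides ham they were the Hox gene Dfd, the forkhead gene jumu, Su(var)3-9, eIF2gamma, and DMAP1, which encodes a subunit of the Domino chromatin complex. Su(var)3-9, which encodes an H3K9 methyltransferase, overlaps eIF2gamma, and 1 region counted for both. The others were CG11790, CG15894, CG31705, CG33521, CG3631, DIP1, FANCI, Marf, cta and lovit. Apart from ham, CG11790, DMAP1 and lovit, each of the 16 genes held 1 peak in each Osa-deGrad library. That peak was the deGrad-only region itself, which the rule chose for lacking a control peak, so for those genes the count largely restates the rule. For the host genes of control-only distal regions, 23 of 410 (5.6%) had no Osa-deGrad peak summit inside. Those genes were longer (median 27.0 kb against 16.7 kb), and the shares were not adjusted for length.

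Spred, a gene for a negative regulator of Ras-MAPK signalling, held 2 regions, of which the stronger (2R, 14763632 to 14763854) ranked at 64.5 and 37.2 and the other at 16.04 and 17.69. Pdp1, a PAR-domain bZIP gene, held regions with ranks of 36.4 and 53.1 (3L, 7865352 to 7865644) and of 20.9 and 22.9. At Mnt, the Max-binding repressor gene, the 2 regions lay 64 to 168 bp from the nearest control peaks, with ranks of 51.4 and 10.6 for the first and 6.96 and 20.6 for the second. In the second Mnt region, 255 bp wide, the peaks of 125 and 138 bp overlapped only at their edges, with summits 140 bp apart. Distal regions in at least 2 lists numbered 20 in Mnt, 12 in Pdp1 and 11 in skd, against 6 in gpp, 3 in Spred and 2 in ham. The other genes with 2 regions were CG5151, Imp, Pdcd4, cu, for, jing, klar and stx. At stx, which encodes a regulator of Polycomb stability, the ranks were 38.4 and 18.7 for the first region and 4.06 and 5.07 for the second. At cu, the curled gene, they were 37.3 and 14.2 and then 2.19 and 28.8.

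**Figure D3:**
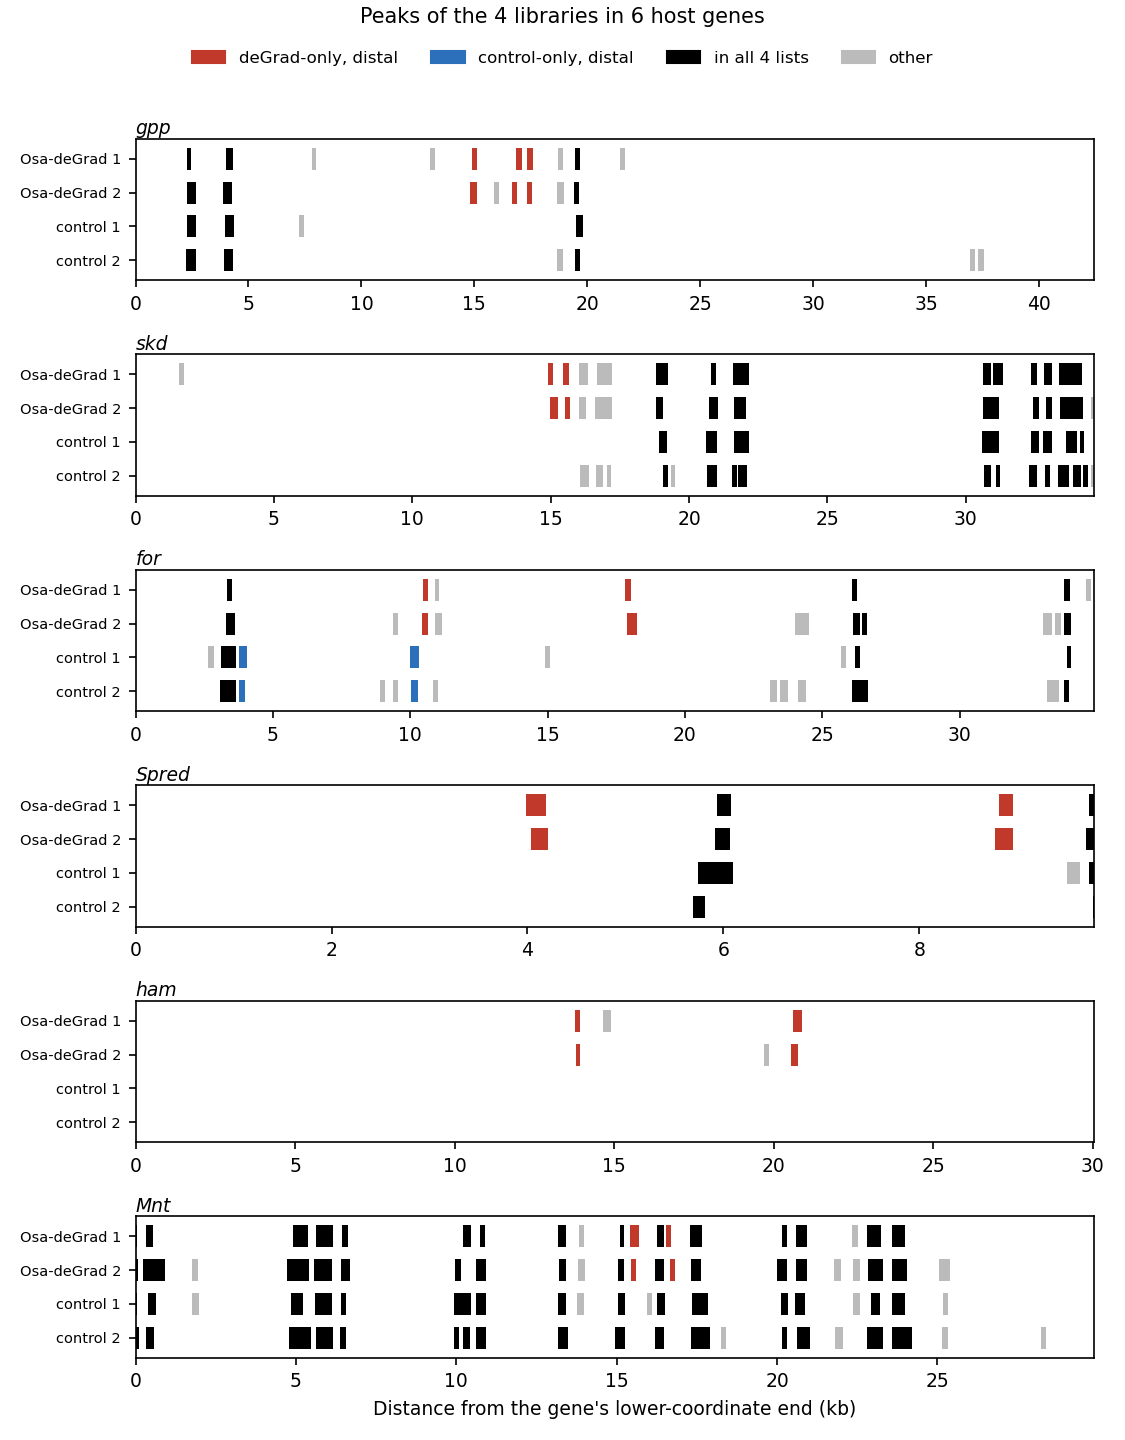
Peaks of the 4 libraries (rows) along 6 host genes, in kb from the lower-coordinate end of each gene, with deGrad-only distal regions in red, control-only distal regions in blue, regions in all 4 lists in black and all others in grey; narrow peaks are drawn at a minimum width. In ham the Osa-deGrad libraries have 3 peaks each and the control libraries 0, but the grey peak lies at a different place in each Osa-deGrad library. In for a red and a blue region lie 113 bp apart.

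Of the 52 genes with regions of both kinds, osp, Tet, CG5151, cv-c, for, hth, klar and sli held the most, with at least 4 in all. Antp and CG1677 were taken in alphabetical order from the genes that tie at 3. osp had 1 deGrad-only and 5 control-only distal regions, and Tet had 1 and 4. The Tet region (3L, 2824251 to 2824508) ranked at 74.3 and 38.0, whereas its control-only regions ranked at 10.4 to 50.5 in control 1 and 23.6 to 41.5 in control 2. In hth, the homeobox partner gene of exd, the deGrad-only region (3R, 10587405 to 10587678) was weak at 12.3 and 10.7, and 1 of the 3 control-only regions ranked at 82.7 and 45.8. In CG5151, for and klar 2 regions of each kind were found. These 10 genes had many distal regions to begin with, from 6 in sli to 23 in klar, in at least 2 lists.

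The shares of deGrad-only distal regions in the gene lists lay on both sides of the background, several lists held none, and no list was tested. Against the background of 3.05% of distal regions, or 3.09% of the 6411 inside protein-coding genes (8.35% of which were control-only), wing selector and patterning genes had 3 of 114 distal regions (2.63%), in bs, hth and the Hox gene Antp. They had 13 control-only distal regions (11.4%). Signalling genes had 5 of 215 (2.33%), in ds and fj of the Fat-Dachsous system, the Dpp receptor gene tkv, the Notch-modifying glycosyltransferase gene fng and the TCF gene pan, against 23 control-only regions (10.7%). Of these the ds region was the strongest in its weaker list (2L, 654740 to 655035, ranks 44.1 and 29.2). The tkv peak had a rank of 16.7 (Osa-deGrad 1) and of 0.00587 (Osa-deGrad 2), at the bottom of the second list.

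Ecdysone response genes had 1 of 237 (0.422%), in the ecdysone-induced zinc-finger gene crol (2L, 11801799 to 11802161, ranks 51.4 and 13.2), against 19 control-only regions (8.02%). Sensory organ genes had 2 of 40 (5%), in shep (3L, 5276612 to 5276758, ranks 46.0 and 45.2) and in sv, the bristle Pax2 gene on chromosome 4 (1098120 to 1098298, ranks 35.8 and 57.3). Adhesion and matrix genes had 3 of 91 (3.30%), in Fas2, Fas3 and Ten-a. Neuronal surface and guidance genes had 2 of 43 (4.65%), in ed and sli. Planar polarity genes had 0 of 41, cuticle, hair and wing differentiation genes 0 of 139, and cell cycle exit genes 0 of 19. Counted by the nearest protein-coding gene end, the differentiation list had 2 of 105, near Cpr64Ad and dpy, the ecdysone list added a region 12594 bp from br, the signalling list 1 near brk, and the patterning list 1 near ct. By that assignment the signalling list lost fng and tkv (4 of 221 regions), the patterning list lost Antp (3 of 164), and the adhesion list lost Fas3 and Ten-a (1 of 65). These counts were not tested, since the lists were drawn up with earlier results of these data known.

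SWI/SNF subunit genes had 1 of 4 distal regions, in osa itself, the gene whose tagged product was targeted (3R, 17709823 to 17710258, ranks 28.1 and 17.3). A control-only distal region also lay in osa. Accessibility of osa does not measure its protein, so depletion of Osa was not checked here. Of the marker lists for other cell types, the tracheal list had 1 of 23, in uif (2L, 7009184 to 7009445, ranks 7.74 and 12.8). Hemocyte, muscle, and neuron and glia markers had 0 of 7, 0 of 26 and 0 of 2, and fat body markers had no distal region in at least 2 lists. Control-only distal regions numbered 5 in the tracheal list (21.7%), 5 in the muscle list (19.2%), and 0 in the hemocyte and the neuron and glia lists. Genes of the transgene constructs had 0 of 7 and cytoplasmic ribosomal protein genes 0 of 1.

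By chromosome arm, the share of distal regions that were deGrad-only ran from 2.69% on X (46 regions) through 2.78% on 2R (42), 2.99% on 3R (56) and 3.27% on 2L (43) to 3.40% on 3L (61). On the small, largely heterochromatic chromosome 4 it was 7.84%, with 4 of 51 regions, in pan, sv, myo and CG33521. The control-only share there was 3.92%, with 2 regions.

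Regions next to centromeres stood out by position. All 9 regions with no control peak within 20 kb lay at the centromere-proximal end of 2L, 3L or 3R, in or near genes embedded in pericentric heterochromatin. They lay inside cta (2L, 22982267 to 22982496), lovit (3L, 25654353 to 25654597) and Myo81F (3R, 1692881 to 1693165 and 2527284 to 2527673), and between genes nearest to Marf1, CR41519 (2 regions), lncRNA:CR46482 and spok. The spok region (3R, 3374221 to 3374516) lay 19934 bp from that gene, which encodes an enzyme of ecdysteroid synthesis, and ranked at 57.1 and 22.9. In the lovit region the ranks were 20.9 and 39.1, and the nearest control peaks lay 428861 and 356872 bp away. Gaps to other Osa-deGrad peaks were not measured, so whether peaks of every library are sparse near the centromeres was not tested. Of the 726 control-only distal regions, 6 had no Osa-deGrad peak within 20 kb, 2 of them on 3R below 4.5 Mb.

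Limits chosen after these values were seen (2L above 22 Mb, 2R below 5.5 Mb, 3L above 23 Mb, 3R below 4.5 Mb, and X from beside DIP1 to the centromere) enclosed 171 distal regions in at least 2 lists. Of these 19 were deGrad-only (11.1%) and 14 control-only (8.19%), whereas in the rest of the genome the shares were 2.88% (233 of 8084) and 8.81% (712). The 19 regions were 5 on 2L, 1 on 2R, 6 on 3L, 4 on 3R and 3 on X. They included a region 44236 bp from nvd, another gene of ecdysteroid synthesis (3L, 24445679 to 24445985, ranks 52.4 and 10.7), and 1 within and 1 beside the homeobox gene scro. When peaks of every list under a −log10 q of 5 were left out, 5 of 132 deGrad-only distal regions lay there. With a minimum of 10 it was 3 of 83, against 19 of 252 without a minimum.

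Over whole lists, 2.70% and 3.19% of the distal peaks of Osa-deGrad 1 and 2 lay within these limits, against 2.34% and 2.0% in control 1 and 2. The limits were drawn with the deGrad-only regions in view and these lists contain their peaks, so the shares are a description with no test. Without the peaks in deGrad-only and control-only distal regions they were 2.53% and 3.06% in Osa-deGrad 1 and 2, against 2.38% and 2.01% in control 1 and 2. Of the deGrad-only distal regions, 27 of 383 lay within these limits without control replicate 1 and 36 of 1023 without control replicate 2. The counts were 149 of 1624 without Osa-deGrad replicate 1 and 101 of 1313 without Osa-deGrad replicate 2. Leaving out a library loosens the rule, under which 19 of 252 were counted with all 4 libraries. Reads in repeats map less surely, and the part of mapping in these counts was not tested.

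**Figure D4:**
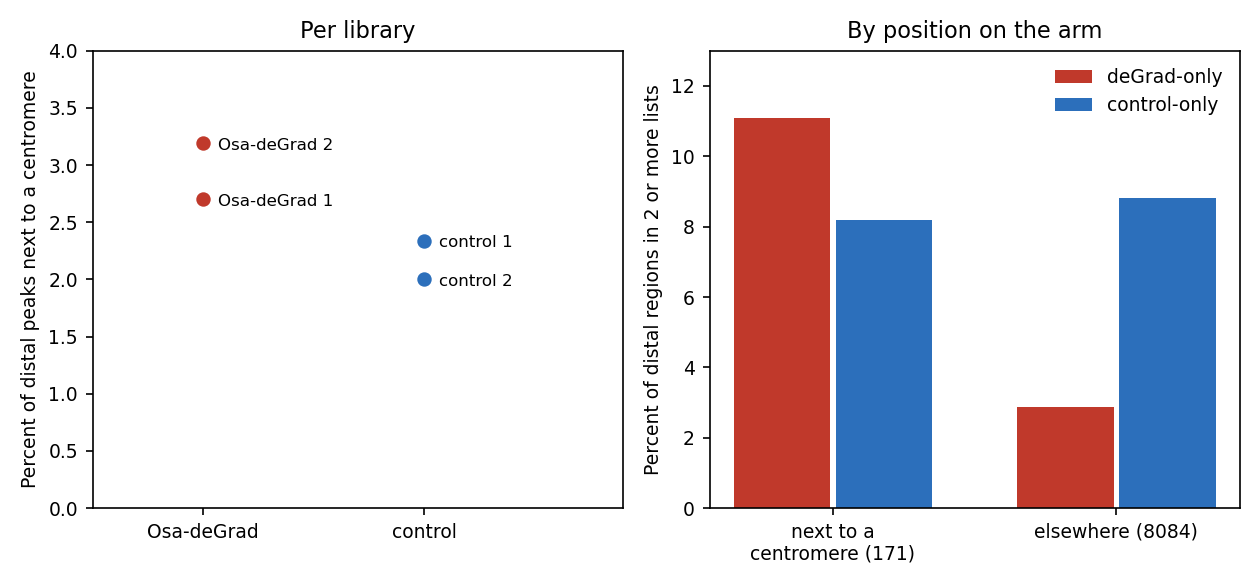
Left, percent of distal peaks within the centromere-proximal limits in each library (points), with Osa-deGrad at 2.70 and 3.19 and control at 2.34 and 2.0; these include the deGrad-only regions seen when the limits were drawn. Right, percent of distal regions in at least 2 lists that were deGrad-only (red) or control-only (blue), inside the limits (171 regions) and elsewhere (8084 regions).

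Whether already open chromatin beside these regions was also stronger was examined on regions the rule did not use. Regions in all 4 lists were ranked among themselves in each library, and the shared region nearest to each deGrad-only distal region was taken, 240 distinct regions at a median gap of 2012 bp. Their median rank was 50.9 and 44.8 in Osa-deGrad 1 and 2, against 55.1 and 49.4 in control 1 and 2. The genotypes overlapped, with a mean difference (Osa-deGrad minus control) of -4.35 rank points (exact permutation test over libraries, two-sided, p = 0.667). For all distal regions in all 4 lists the difference was -7.09, and for those within 500 bp of a gene end it was 6.24. For 111 of the 252 (44.0%) the nearest shared region was itself within 500 bp of a gene end.

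Beside control-only distal regions the shared regions ranked lower in Osa-deGrad wings, at 44.8 and 42.3, against 57.8 and 56.4 in control wings. That difference was -13.6 rank points (exact permutation p = 0.333, the smallest possible). Shared regions beside deGrad-only distal regions thus did not rank higher in Osa-deGrad wings beyond the spread between libraries. The sign of that difference turned with a limit of 250 bp (0.652), with a −log10 q minimum of 10 (2.27), without control replicate 1 (0.557) and within the replicate 1 libraries alone (1.41).

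**Figure D5:**
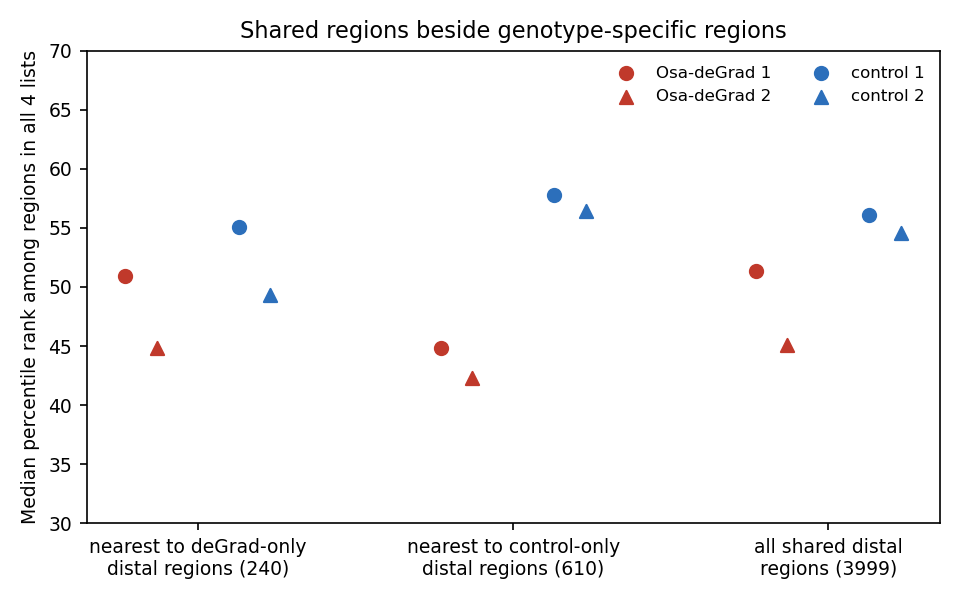
Median percentile rank, among regions in all 4 lists, of the shared regions nearest to deGrad-only distal regions, of those nearest to control-only distal regions, and of all shared distal regions, in each of the 4 libraries (red, Osa-deGrad; blue, control; circles, replicate 1; triangles, replicate 2). The libraries of both genotypes interleave in the first set, from 44.8 to 55.1, and are apart in the second, by a mean of -13.6.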

How the data were processed

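FAIRE-seq peak lists of 4 libraries (2 Osa-deGrad, 2 control) were analysed. The authors deposited 1 narrowPeak list per library on dm6, with replicates kept apart. Tools listed in the submitters' processing notes, with no roles, are MACS2 2.1.2, deepTools 2.4.1, Bowtie2 2.3.4.1, Picard 2.2.4 and SAMtools 1.9. Calling settings, and any control track, were not given in the sources used here. The authors' values per peak were a summit fold enrichment (a ratio to local background), −log10 p, −log10 q, and a score that in every row was the −log10 q times 10, cut to a whole number. The deposited summit offset gave summit positions. Fold and −log10 q describe peaks within their own list. Depth is unknown, so no interval that needs read counts was given.

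Peaks overlapping by at least 1 bp were merged (Python 3.11.15, pandas 2.3.3, NumPy 2.4.6, SciPy 1.17.1), and classing was tested on 2000 simulated regions, all of which were classed as they were made. The simulated regions were set too far apart to touch, so close neighbours were not tried. The summit of a region was that of its best-ranked peak. Positions of 17851 genes came from a RefSeq gene table for the assembly Release 6 plus ISO1 MT, which corresponds to dm6. Regions on sequences with no annotated gene were not counted as distal. The genes named were the 20 strongest regions, genes with 2 or more regions, genes of the lists, regions beside the 500 bp limit and 10 genes with most regions of both kinds (ties in alphabetical order). Other genes were named after their values were seen. The regions and lists were chosen with earlier results of these data known. Planned sequence features of the regions were not analysed here.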

Additional observations from a re-analysis of the deposited data

How the results depend on the processing

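Every alternative was planned, except that the centromere-proximal count and the replicate block were added after seeing the data. Of 75 alternative values 42 stayed within their allowed spread (a factor of 1.5 for counts, the 95% Wilson interval for shares, the sign for rank differences), 29 moved and 4 changed sign. The share inside gene bodies ranged from 78.7% to 81.3% when 1 library was left out, and moved only with a −log10 q minimum of 10, to 84.3%. That minimum, applied to all 4 lists, gave 83 regions, or 2.30% of distal regions, 11 in list genes (18 as reported) and a rank difference of 2.27. A minimum of 5 gave 132 regions (2.16%). Both leave fewer peaks by construction. Counting peaks as shared when their summits lay within 200 bp gave 3.85% and 31 regions in list genes. With a limit of 250 bp the rank difference was 0.652. Leaving out 1 library gave 383 to 1624 regions, 5.28% to 15.6% of distal regions, 30 to 140 in list genes and a rank difference of -1.48 to 0.557. Without an Osa-deGrad library the share of distal regions in at least 2 lists cannot be formed. The rank comparison, with same-numbered libraries as a replicate block, gave differences of -4.20 (replicate 1) and -4.51 (replicate 2), a mean of -4.35 and an exact sign-flip permutation p of 0.5, the smallest that 2 pairs allow. The labels do not say that a number marks a shared batch. The deviations of same-numbered libraries correlated at 0.116 over 7900 regions in all 4 lists, and the replicate 2 lists were longer in both genotypes. Whether same-numbered libraries share a batch was not tested. The other results come from no test and have no blocked form. With the rule applied anew within the replicate 1 and replicate 2 libraries alone, there were 2539 and 1992 regions, with 271 and 175 in list genes, and a rank difference of 1.41 and -1.90. Beyond what fewer peaks or looser rules bring, the cause of these shifts was not tested.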
